A study of Mus musculus with 6 samples.

Results

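The genes described here are 3 mechanosensing ion channel genes (*Piezo1*, *Piezo2* and *Trpv4*), the transcriptional coactivators *Yap1* and *Wwtr1* (the gene of TAZ) and their DNA-binding partners *Tead1*, *Tead2*, *Tead3* and *Tead4*. They were taken by symbol from the deposited gene tables, where all 9 were found among 53819 listed genes, and all 9 passed the filter on low counts, as did 17496 genes in all. RNA was sequenced from healing flexor digitorum longus (FDL) tendons of 3 DTRScxLin and 3 WT mice, with 1 tendon per library. DTRScxLin mice were *Scx-Cre+; DTR F/+* and WT littermates were *Scx-Cre-; DTR F/+*. Both groups carried the Cre-inducible diphtheria toxin receptor allele, underwent transection and repair of the tendon at 10 to 12 weeks of age, and received 5 daily injections of 100 ng diphtheria toxin (DT) between D14 and D18 post-surgery. Tendons were harvested at D28 post-surgery by the study's methods, while the sample titles place D28 after depletion. The *Scx-Cre* driver is not inducible, so the receptor is expressed in every cell with a history of *Scx* expression, and no reporter marks which cells were lost. Mice of both sexes were used. The comparison asks how the transcripts of these genes differed after depletion of *Scx*-lineage cells.

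PIEZO1 and PIEZO2 are large cation channels that open when the membrane is stretched, and TRPV4 is a calcium-permeable channel of the TRP family that responds to osmotic swelling and shear. YAP and TAZ are held in the cytoplasm when the Hippo kinases phosphorylate them. On stiff or stretched matrix they enter the nucleus, bind TEAD factors and switch on genes for matrix, adhesion and growth. Much of this regulation acts on protein location and channel opening, which RNA does not measure. Tendon cells are loaded tissue cells in which both systems have been studied as sensors of load.

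The counts per library summed to between 42744138 and 48854310, and the 9 genes together held 0.0801% to 0.0941% of them. Tendon markers were abundant in every library (*Tnmd*, encoding tenomodulin, had at least 50544 normalized counts), and a list of 11 tendon genes held 4.45% to 5.23% of WT and 5.08% to 6.18% of DTRScxLin counts. *Scx*, the gene that defines the targeted lineage, was higher in all DTRScxLin libraries (3409 to 3534 normalized counts) than in all WT libraries (2203 to 3066), with a log2 fold change of 0.39 (adjusted p = 0.371 by edgeR), and the median of the 11 tendon genes was 0.32. Normalized counts are TMM-scaled counts at the mean library size. RNA of neighbouring tissues varied between libraries. Skeletal muscle genes (30 listed) took up 3.20%, 2.92% and 2.33% of the WT libraries, in the order of their replicate numbers, and 0.406%, 2.84% and 0.769% of the DTRScxLin libraries. Keratinocyte genes (15 listed) took up 0.335% and 0.208% of WT replicates 1 and 2, 0.0317% of DTRScxLin replicate 3 and no more than 0.00180% elsewhere. *Xist* was counted 49303 times or more in WT replicate 2 and DTRScxLin replicates 2 and 3 and at most 4 times in the others, so the sexes were not balanced. In bulk tissue, fewer cells of a type and less RNA per cell cannot be told apart.

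Between the groups, edgeR's quasi-likelihood test called 0 of the 9 genes at an adjusted p under 0.05, as it did 0 (0%) of the 17496 genes tested. At an unadjusted p under 0.05, *Piezo1* was higher and *Tead4* lower, 2 of the 9, against 11% of all genes tested (5.52% higher and 5.45% lower). That count was 4 without DTRScxLin replicate 2, 1 without WT replicate 1, WT replicate 3, DTRScxLin replicate 1 or DTRScxLin replicate 3, and 0 with the skeletal muscle or the keratinocyte level as a covariate. The same 2 genes had no overlap between the groups, against 16.8% of all genes tested (8.96% above and 7.85% below). DESeq2's Wald test called 1 of the 9, *Tead4*, against 2.65% of the genes it gave an adjusted p (1.53% lower), and limma-voom called 0. The study's own comparison used DESeq2 and reported 197 genes higher and 269 lower in DTRScxLin tendons, the same numbers that DESeq2 gave here. The 9 log2 fold changes ran from -0.87 for *Tead4* to 0.34 for *Piezo2*, with 4 genes fitted higher and 5 lower.

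**Figure D1:**
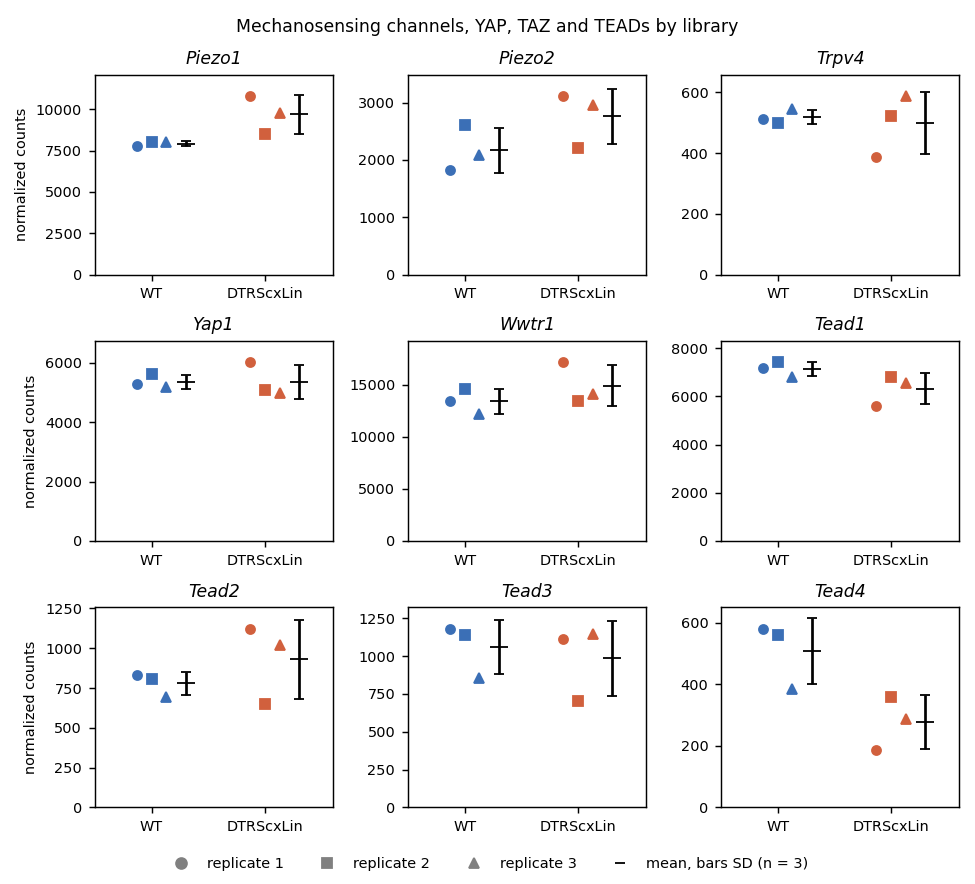
Normalized counts (vertical axes, each from 0) of the 9 genes in the 3 WT and 3 DTRScxLin libraries, with replicates told apart by symbol and mean ± SD (n = 3) beside them. Only *Piezo1* (lowest DTRScxLin value 8497, highest WT value 8026) and *Tead4* (highest DTRScxLin value 359.9, lowest WT value 385) separate the groups.

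*Piezo1* was the most uniform of the channels in WT tendons. Normalized counts, here and below in the order of replicates 1 to 3, were 7755, 8026 and 7992 in the WT and 10799.5, 8497 and 9744 in the DTRScxLin libraries. Every DTRScxLin library was above every WT library, with DTRScxLin replicate 2 the nearest to WT. The means were 7925 ± 148 and 9680.1 ± 1153 (SD, n = 3 each), and the log2 fold change (DTRScxLin over WT) was 0.29 (standard error, SE, 0.11, 95% interval 0.04 to 0.54), with an adjusted p = 0.423 by edgeR's quasi-likelihood test and 0.243 by DESeq2. Adding each library's muscle level to the fit gave 0.10. *Piezo1* shares 24.6% of its exonic bases with *Ctu2* on the opposite strand in the GENCODE annotation, and whether reads were counted by strand is not given in the sources used here, so its level is uncertain to that extent.

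*Piezo2*, better known as the touch channel of sensory endings, was less abundant per kilobase of transcript than *Piezo1*. It measured 1830.2, 2600.4 and 2082 in the WT and 3114, 2207 and 2949 in the DTRScxLin libraries. DTRScxLin replicates 1 and 3 were above all WT libraries, and DTRScxLin replicate 2 lay within the WT range. The log2 fold change of 0.34 (SE 0.17, 95% interval -0.06 to 0.75) had an adjusted p = 0.492 by edgeR. It was 0.05 with the skeletal muscle covariate. Without WT replicate 2 it was 0.50 and without DTRScxLin replicate 2 it was 0.48, both at an adjusted p of 0.155 or more by edgeR. Of 9 markers of Merkel cells and sensory endings, 4 passed the filter on low counts, and the list held at most 0.00469% of any library. Its share was lowest, at 0.00221%, in DTRScxLin replicate 1, where *Piezo2* was highest. It was 0.00448% in DTRScxLin replicate 3, where *Piezo2* was next highest. The Merkel cell factor *Atoh1* and the sensory neuron channel gene *Scn10a* had at most 1.02 and 0.942 normalized counts in any library. Of the tested markers, *Ntrk2* was lower (log2 fold change -0.94, DESeq2 adjusted p = 0.00322) and *Prph* higher (1.02, DESeq2 adjusted p = 0.0448) in DTRScxLin tendons, with edgeR adjusted p-values of 0.314 and 0.452. These 4 markers were singled out after their values were seen, and the part of sensory endings in the *Piezo2* values was not tested.

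*Trpv4* had the lowest level of the 3 channels per kilobase of transcript. Its values were 513, 498 and 546 normalized counts in the WT and 387, 521 and 588 in the DTRScxLin libraries. The DTRScxLin libraries lay on both sides of the WT range, replicate 1 below it and replicate 3 above it. The log2 fold change was -0.06 (SE 0.17, 95% interval -0.45 to 0.33), and its sign turned with 1 library left out.

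*Yap1* and *Wwtr1* overlapped between the groups. *Yap1* measured 5272, 5622 and 5189 in the WT and 6011, 5070.0 and 4968 in the DTRScxLin libraries. Its means were 5361 ± 230 and 5349.6 ± 575 (SD, n = 3 each), a log2 fold change of -0.0031 with a 95% interval of -0.23 to 0.22, so these data leave room for a difference of that size in either direction. *Wwtr1* measured 13392, 14577.5 and 12189.9 in the WT and 17137, 13418 and 14116 in the DTRScxLin libraries. DTRScxLin replicate 1 held the highest value of both genes. The log2 fold change of *Wwtr1* was 0.15 (SE 0.13, 95% interval -0.14 to 0.45, adjusted p = 0.663 by edgeR), 0.04 without DTRScxLin replicate 1, and 0.0034 with the skeletal muscle covariate.

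The balance of both coactivators was then compared within each library, which removes library scaling. Per kilobase of transcript, *Wwtr1* was above *Yap1* in all 6 libraries. The log2 ratio of *Yap1* over *Wwtr1* was -1.18, -1.21 and -1.07 in WT and -1.35, -1.24 and -1.34 in DTRScxLin replicates 1 to 3. The ratio was lower in every DTRScxLin than in every WT library, by 0.16 on the log2 scale, with a two-sided exact permutation p = 0.1, the smallest that 3 against 3 libraries can give. WT replicate 2 and DTRScxLin replicate 2 differed by less than the spread between replicates. A ratio within a library does not remove differences in tissue content. The lowest ratios were in DTRScxLin replicates 1 and 3, the libraries with the least muscle RNA (0.406% and 0.769%), and the part of muscle was not tested.

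**Figure D2:**
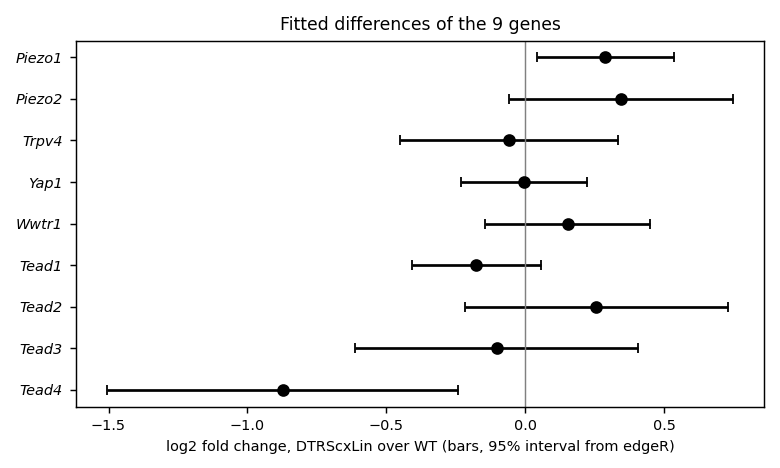
Log2 fold change of DTRScxLin over WT (horizontal axis) for each of the 9 genes, with 95% intervals from edgeR's quasi-likelihood fit. The intervals of *Piezo1* (0.04 to 0.54) and *Tead4* (-1.51 to -0.24) leave out 0 before adjustment for the number of genes tested, and the other 7 include it.

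*Tead1* was the main TEAD transcript, and *Tead4* had the biggest fitted difference of the 9 genes with genotype as the single term (with the muscle covariate it was *Tead3*, at -0.49 against -0.41 for *Tead4*). *Tead4*, which also acts with muscle regulators in myogenic cells, measured 579.9, 559 and 385 in the WT and 186, 359.9 and 286 in the DTRScxLin libraries. Every DTRScxLin library was below every WT library, though WT replicate 3 and DTRScxLin replicate 2 were close. The means were 508 ± 107 and 277 ± 87.5 (SD, n = 3 each), a log2 fold change of -0.87 (SE 0.27, 95% interval -1.51 to -0.24). The adjusted p was 0.368 by edgeR's quasi-likelihood test and 0.0438 by DESeq2.

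*Tead4* was read beside the skeletal muscle list. The 2 libraries with the least muscle RNA, DTRScxLin replicates 1 and 3, had the lowest *Tead4*, while DTRScxLin replicate 2, with a muscle share within the WT range, had 359.9 normalized counts, below all WT libraries. With the muscle level as a covariate the log2 fold change of *Tead4* was -0.41 (unadjusted p = 0.172 by edgeR), and with the keratinocyte level it was -0.65. With *Xist* as a covariate, which carries the sex of the mouse, it was -1.09. Since the muscle share itself differed between most libraries of the groups, its part and that of genotype cannot be told apart here.

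*Tead1* measured 7189.6, 7415 and 6811 in the WT and 5584, 6816 and 6558 in the DTRScxLin libraries. The groups met at WT replicate 3 and DTRScxLin replicate 2, which were nearly equal, and the log2 fold change was -0.18 (SE 0.10, adjusted p = 0.528 by edgeR), and -0.0436 with the muscle covariate. *Tead2* measured 832, 807 and 696 in the WT and 1122, 649 and 1019 in the DTRScxLin libraries. Its log2 fold change was 0.26 (SE 0.20, adjusted p = 0.648 by edgeR), 0.46 without DTRScxLin replicate 2, 0.10 without DTRScxLin replicate 1, and -0.20 with the muscle covariate. *Tead3* measured 1181, 1143 and 854 in the WT and 1111, 701 and 1149.5 in the DTRScxLin libraries, a log2 fold change of -0.10 (SE 0.22, adjusted p = 0.888 by edgeR). With the muscle covariate *Tead3* was further from 0, at -0.49 (SE 0.24, adjusted p = 0.775 by edgeR). Of the 4 TEAD genes, *Tead2* and *Tead3* were lowest in the same library, DTRScxLin replicate 2, and *Tead1* and *Tead4* were lowest in DTRScxLin replicate 1.

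Per kilobase of the median coding transcript in GENCODE vM21, *Tead1* had 5392 normalized counts on average over the 6 libraries, *Wwtr1* 3064, *Tead2* 1443, *Yap1* 1301, *Piezo1* 1071, *Piezo2* 477, *Tead3* 407, *Tead4* 228 and *Trpv4* 206. Neighbours in this order had overlapping ranges over the libraries, except that *Tead1* lay apart from *Wwtr1*, *Wwtr1* from *Tead2*, and *Piezo1* from *Piezo2*. This order depends on the transcript model, because the annotation lists short coding models for *Tead1* (median 1248 nt, longest 9964 nt) and *Tead2* (592 and 3396 nt). With the longest transcript the order was *Wwtr1* at 3010.1, *Yap1* at 1284, *Piezo1* at 1071, *Tead1* at 675, *Tead3* at 369, *Tead2* at 252, *Piezo2* at 229.7, *Trpv4* at 158 and *Tead4* at 128. By both lengths *Wwtr1* stood above *Yap1*, *Piezo1* above *Piezo2* and *Trpv4*, and *Tead1* above the other TEAD genes.

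*Tead1* made up 72.3%, 73.5% and 75.8% of the summed TEAD level per kilobase in WT and 64.7%, 77.5% and 69.1% in DTRScxLin replicates 1 to 3, and these overlapped. The share of *Tead4* was 4.23%, 4.02% and 3.11% in WT and 1.56%, 2.97% and 2.19% in DTRScxLin replicates 1 to 3. It was lower in every DTRScxLin library (two-sided exact permutation p = 0.1, the smallest possible), a difference of -1.55 percentage points, or -4.24 with the longest transcripts. The share of *Tead2* was 16.9% ± 0.648 in WT and 21.9% ± 5.96 in DTRScxLin tendons (SD, n = 3 each, exact permutation p = 0.4).

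**Figure D3:**
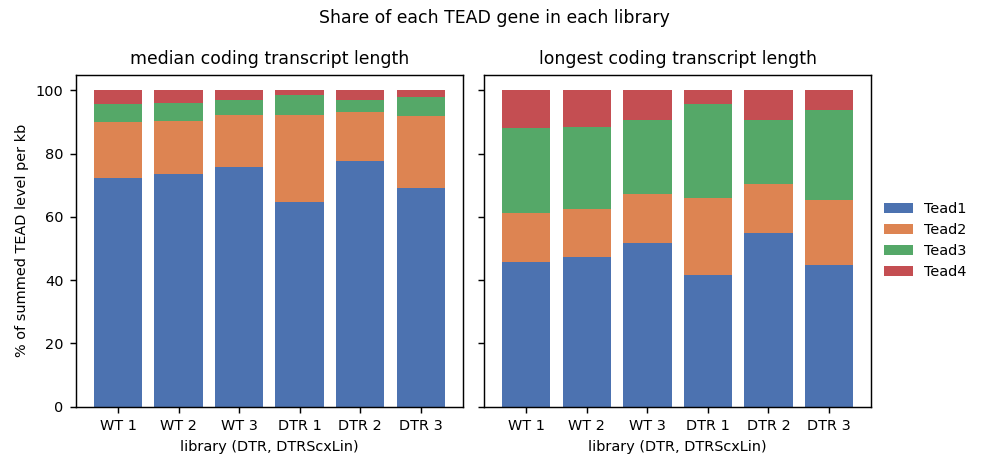
Share of each TEAD gene (%) in the summed TEAD level per kilobase of transcript, stacked for each of the 6 libraries, with the median coding transcript length at left and the longest at right. *Tead1* holds the biggest share in every library, from 64.7% to 77.5% at left, and *Tead4* is smaller in each DTRScxLin library than in each WT library.

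Other channels with a described link to stretch were read from a list of 24 genes, of which 19 passed the filter on low counts. Over these 19 the median log2 fold change was 0.06, against 0.0082 over all genes tested, and edgeR called 0. At an unadjusted p under 0.05, 1 was higher and 2 were lower, where 5.52% of all genes tested were higher and 5.45% lower. Of the 19, 4 lay above and 2 below without overlap between the groups, where 8.96% and 7.85% of all genes tested did. *Tmem63b*, of the OSCA and TMEM63 family of mechanically gated channels, measured 2428, 2473 and 1979 in the WT and 1528, 1610 and 1709 in the DTRScxLin libraries. All DTRScxLin libraries were below all WT libraries (log2 fold change -0.51, SE 0.11, adjusted p = 0.274 by edgeR and 0.0169 by DESeq2). *Kcnk2*, the stretch-sensitive potassium channel TREK-1, and *Panx1*, a channel that releases ATP, differed by 0.43 and 0.29 on the log2 scale (SE 0.23 and 0.12), both without overlap between the groups, though *Kcnk2* had 169 in WT replicate 2 and 171 in DTRScxLin replicate 2.

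**Figure D4:**
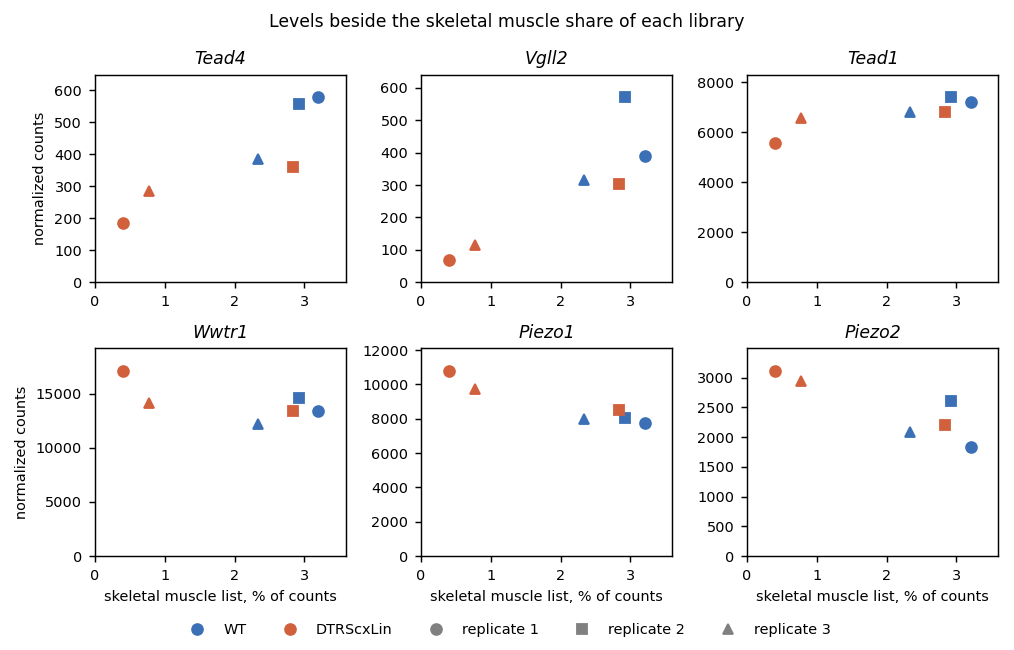
Normalized counts (vertical axes, each from 0) of *Tead4*, *Vgll2*, *Tead1*, *Wwtr1*, *Piezo1* and *Piezo2* against the percent of each library's counts on 30 skeletal muscle genes (horizontal axes), 1 point per library. The DTRScxLin libraries at 0.406% and 0.769% have the lowest *Tead4*, *Vgll2* and *Tead1* and the highest *Piezo1* and *Piezo2*.

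The Hippo kinases and their upstream regulators had a median difference near 0. Of 27 genes 26 were tested, with a median log2 fold change of 0.0117, 14 fitted higher and 12 lower, and edgeR called 0. The core genes *Stk3* (MST2, a kinase that activates LATS) and *Mob1a* (a LATS cofactor), which were singled out after their values were seen, differed by 0.26 and 0.21 on the log2 scale (SE 0.10 and 0.09), with all DTRScxLin libraries above all WT libraries. The core genes *Stk4* (-0.10), *Sav1* (-0.0060), *Lats1* (0.20), *Lats2* (0.10) and *Mob1b* (0.04) overlapped between the groups. Of the 26 tested genes, 3 lay above and 1 below without overlap, where 8.96% and 7.85% of all genes tested did. *Amotl2*, an angiomotin that binds YAP and is itself a YAP target, measured 2951, 2467 and 1966 in the WT and 3736, 3133 and 3181 in the DTRScxLin libraries (log2 fold change 0.44, SE 0.15, adjusted p = 0.401 by edgeR). Its relative *Amot* was fitted at a log2 fold change of -0.30 (SE 0.16), with overlap. *Fat4*, an atypical cadherin upstream of Hippo signalling, had 7414 normalized counts in DTRScxLin replicate 1 against 3837 to 5402 in the other libraries (0.34, SE 0.22). *Tnik*, a kinase of the MAP4K group, measured 962, 819.7 and 710.3 in the WT and 466, 705 and 508 in the DTRScxLin libraries (log2 fold change -0.57, SE 0.19, adjusted p = 0.386 by edgeR, and -0.77 with adjusted p = 0.0489 without DTRScxLin replicate 2). Without that library edgeR called 544 of 17998 genes. *Wwc1* (KIBRA), also singled out after its values were seen, measured 165, 63.1 and 17.7 in the WT and 6.19, 8.61 and 38.0 in the DTRScxLin libraries, and its 3 highest values were in the 3 libraries with the most keratinocyte RNA.

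Cofactors that compete with or join YAP on TEAD lay on both sides of 0. *Vgll2*, a vestigial-like cofactor of skeletal muscle, measured 391, 573 and 315 in the WT and 68.1, 302 and 115 in the DTRScxLin libraries. The groups did not overlap, and its lowest values were in the 2 libraries with the least muscle RNA (log2 fold change -1.40, SE 0.58, adjusted p = 0.463 by edgeR, and -2.22 with adjusted p = 0.0272 without DTRScxLin replicate 2). The fit without that library, which has the most muscle RNA of the DTRScxLin group (2.84%), called 544 of 17998 genes. *Vgll3*, a related cofactor, measured 2309, 2219.8 and 2208 in the WT and 3511, 2712 and 2790.5 in the DTRScxLin libraries, again without overlap (0.42, SE 0.11, adjusted p = 0.330 by edgeR). The coactivator *Ncoa1* was fitted at a log2 fold change of -0.29 (SE 0.09), also without overlap, and its relative *Ncoa2* at 0.03 (SE 0.10). Over the 6 tested genes of the 7 listed, edgeR called 0, and 3 had no overlap between the groups, where 16.8% of all genes tested had none.

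The readout of YAP and TEAD activity in RNA is usually taken from their target genes. A list of 22 such genes was tested in full, with a median log2 fold change of 0.10, 15 fitted higher and 7 lower. edgeR called 0 of them, DESeq2 called 2 (*Ccn1* and *Nt5e*), and 3 had an unadjusted p under 0.05, all higher. Over all genes these shares were 2.65% for DESeq2 and 11% at an unadjusted p under 0.05, of which 5.52% were higher. *Ccn1*, a matricellular protein gene and a textbook YAP target, measured 8431, 5364 and 5792 in the WT and 8299, 12853 and 11868 in the DTRScxLin libraries. WT replicate 1 was above DTRScxLin replicate 1, so the groups overlapped (log2 fold change 0.75, SE 0.23, adjusted p = 0.371 by edgeR and 0.0219 by DESeq2). *Ccn2*, the connective tissue growth factor gene, measured 8266, 9035 and 14263 in the WT and 11683, 22267 and 11317 in the DTRScxLin libraries, with overlap (0.52, SE 0.35, adjusted p = 0.605 by edgeR). *Ankrd1*, another textbook target that muscle also expresses, measured 372, 546 and 736 in the WT and 369, 738 and 611 in the DTRScxLin libraries (0.05, SE 0.33). The 3 textbook targets ranked the DTRScxLin libraries differently from *Piezo1* and *Wwtr1*, for DTRScxLin replicate 2 was the highest in all 3 and DTRScxLin replicate 1 the lowest in *Ccn1* and *Ankrd1*.

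*Nt5e*, the gene of the ecto-enzyme CD73, had the smallest p of the target list. It measured 4129, 3949 and 3808 in the WT and 8085, 5723 and 5933 in the DTRScxLin libraries. The groups were well apart (log2 fold change 0.73, SE 0.14, adjusted p = 0.268 by edgeR and 0.000706 by DESeq2, and 0.82 with adjusted p = 0.0263 by edgeR without DTRScxLin replicate 2). Without that library edgeR called 544 of 17998 genes. *Gadd45a*, a stress-induced gene, and *F3*, the tissue factor gene, differed by -0.37 and -0.31 on the log2 scale (SE 0.68 and 0.32), and both overlapped.

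**Figure D5:**
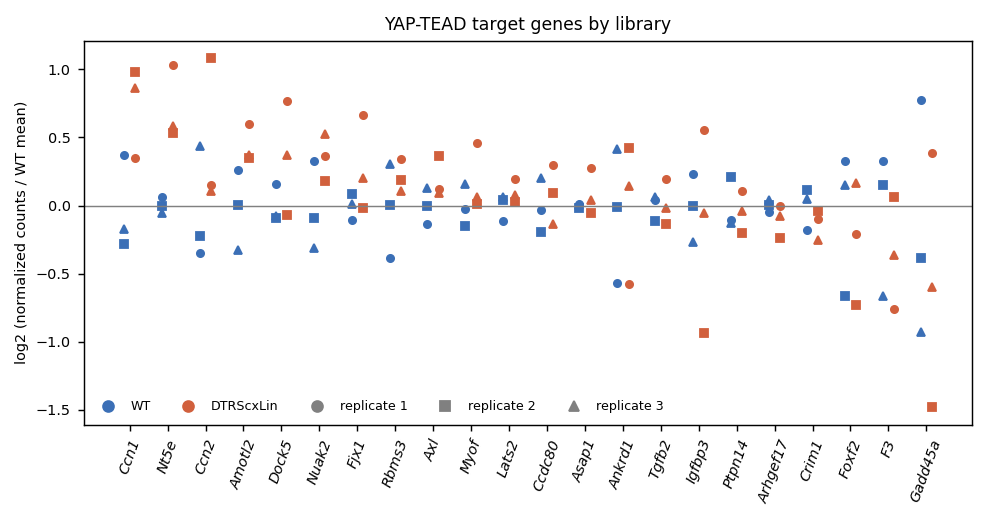
Log2 of normalized counts over the WT mean (vertical axis) for the 22 YAP-TEAD target genes, ordered by fitted log2 fold change, with 1 symbol per library. *Nt5e* and *Amotl2* (2 of 22) have all DTRScxLin points above all WT points, where 8.96% of all genes tested did. The other 20 genes overlap.

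TEAD factors bind the MCAT element, whose core is GGAATG or, on the other strand, CATTCC. The 250 bases before the annotated start were searched for it in the RefSeq promoter table (build GRCm38.p6, while the build the authors counted on is not given in the sources used here), which was matched by symbol and held 15 of the 22 targets and 6 of the 9 genes. The core was found for 6 of the 15 targets (*Amotl2*, *Ccn1*, *Ankrd1*, *Axl*, *Crim1* and *Ptpn14*), which is 40% against 14.4% of all 27025 genes in the table. *Yap1*, *Wwtr1* and *Tead3* held it among the 6 genes (50%). Among the cell type marker lists its share ran from 0% of 8 macrophage markers to 50% of 6 Schwann cell markers. It was 33.3% of 24 skeletal muscle markers. A share of 40% is thus not particular to the targets, the lists are small, and no share was tested. The stretches around the core are shown for the targets described above and for both coactivators, written 5′ to 3′ on the gene's strand, with the core in capitals. A match is a description of the letters and not evidence of binding.
Ccn1 (chr3:145650068-145650103, minus strand): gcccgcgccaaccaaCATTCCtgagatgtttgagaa
Ankrd1 (chr19:36119947-36120069, minus strand): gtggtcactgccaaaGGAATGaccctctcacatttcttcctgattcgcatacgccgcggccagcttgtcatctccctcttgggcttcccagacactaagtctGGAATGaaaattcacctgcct
Amotl2 (chr9:102717724-102717759, plus strand): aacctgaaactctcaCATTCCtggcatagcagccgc
Yap1 (chr9:8004717-8004752, minus strand): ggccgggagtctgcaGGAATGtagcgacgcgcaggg
Wwtr1 (chr3:57576026-57576061, minus strand): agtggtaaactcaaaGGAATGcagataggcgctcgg

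*Ccn1* holds the core 103 bases before its start, *Amotl2* 65, *Yap1* 141 and *Wwtr1* 136 before the first of its annotated starts, and *Ankrd1* holds it at 210 and 123. Targets with the core differed in their values and lay on both sides of 0. Their log2 fold changes were 0.75 for *Ccn1*, 0.44 for *Amotl2*, 0.20 for *Axl*, 0.05 for *Ankrd1*, -0.04 for *Ptpn14* and -0.13 for *Crim1*.

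The cytoskeletal genes that carry force to the nucleus and feed YAP and the SRF cofactors were read as a list of 27 genes, all tested. Their median log2 fold change was 0.03, with 15 fitted higher and 12 lower, and edgeR called 0. *Actg1* (gamma actin) measured 3514, 3398 and 3966 in the WT and 4949.6, 3995 and 4284 in the DTRScxLin libraries, without overlap (0.28, SE 0.11, adjusted p = 0.429 by edgeR). *Src*, a kinase of focal adhesions, was fitted at a log2 fold change of 0.28 (SE 0.13), with overlap. The smooth muscle actin gene *Acta2*, a myofibroblast marker, had 14033 to 26671 normalized counts in WT and 11757 to 19629 in DTRScxLin libraries (-0.37, SE 0.29), and calponin (*Cnn1*) had 329 to 831 and 177 to 945 (-0.56, SE 0.83). A list of 10 smooth muscle and pericyte markers, which includes the muscle gene *Des*, held 0.207% to 0.251% of WT and 0.148% to 0.193% of DTRScxLin counts, and its part in these values was not tested.

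The 9 genes followed several patterns over the 6 libraries. *Tead1* and *Tead4* varied together (Pearson r = 0.96 of log2 CPM, n = 6 libraries), as did *Piezo1* and *Piezo2* (r = 0.86). *Piezo1* ran against *Tead4* (r = -0.94) and *Tead1* (r = -0.91), and *Trpv4* against *Yap1* (r = -0.93). These pairs were singled out from all pairs of the 9 genes after their values were seen. *Piezo1* and *Tead4* also separate the groups in opposite directions, so their r carries that split. Among 14409 other genes with at least 50 normalized counts on average, the closest to each gene by the same r were *Cep192* and *Rbfox2* for *Piezo1*, *Rnf24* and *Mbd5* for *Piezo2*, *Tango2* and *Noxo1* for *Trpv4*, *Slc45a4* and *Luzp1* for *Yap1*, and *Arhgap29* and *Nmnat2* for *Wwtr1*. For the TEAD genes they were *Gm49417* and *Zfp784* for *Tead1*, *Eda* and *Lrrc32* for *Tead2*, *Zdhhc18* and *Ttpal* for *Tead3*, and *2310015A10Rik* and *Casz1* for *Tead4*. These r ran from 0.98 to 1.00, as the highest of 14409 over 6 libraries that share the split by genotype and muscle content, and are given as a description.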

How the data were processed

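Libraries were made from 200 ng total RNA, and the labels name a TruSeq Stranded mRNA kit and a SMARTER mRNA-Seq kit. Single-end reads were cleaned with FastP and assigned to genes with featureCounts by the authors, whose deposited counts are whole numbers with no scaling. The aligner, build, annotation and strand setting are not given in the sources used here. A further deposited table holds a signal, these counts over a DESeq2 size factor for each library (0.973 to 1.06). Samples were matched to columns by the labels.

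The main test was that of edgeR 4.0.16 in R 4.3.3 (filterByExpr, TMM, robust quasi-likelihood fit with genotype alone, Benjamini-Hochberg adjustment over all 17496 genes tested, threshold 0.05). Alternatives were DESeq2 1.42.0, limma 3.58.1 (voom with and without quality weights), other scalings and filters, the replicate number as a block, removal of muscle genes, muscle, keratinocyte or *Xist* levels as a covariate, and each library left out. The SE was derived from the fold change and its F statistic. log2 CPM used a prior count of 2, and the deposited normalized counts entered limma as log2(value + 1). Ratios and shares were compared by exact permutation over libraries. Tests were run on simulated data first, where false calls numbered 13 for edgeR, 56 for DESeq2 and 11 for limma-voom. At a simulated log2 fold change of 1 in either direction, edgeR recovered 56 of 99 changed genes, DESeq2 66 of 100 and limma-voom 29 of 99. The simulation drew a single set of counts with the dispersions that edgeR fitted and with no differences in tissue content between libraries. Its counts of false calls and of recovered genes need not hold for these data. DESeq2 adjusted p-values are to be read with that number of false calls and with this limit.

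The genes, lists and tests were chosen with earlier results of these data known. Named genes were the 9 genes, *Ccn1*, *Ccn2*, *Ankrd1*, the 2 most positive and 2 most negative log2 fold changes of each pathway list among genes averaging 50 or more normalized counts, and the 2 closest genes by correlation. A gene that this rule names in the list of other channels is not reported here. Replicate libraries differed by 40.1 to 209 chi-square per degree of freedom, so none was a duplicate, and the 3 libraries of a group were separate tendons. Taken over all genes, counting error was small beside the spread between tendons, and n = 3 limits the precision. That does not hold for every gene with few counts. *Trpv4* in WT tendons had 505 to 529 counts and a coefficient of variation of 4.70%, a spread near the counting error. Lengths came from GENCODE vM21 coding transcripts, matched by symbol. Markers of endothelial cells, macrophages and Schwann cells held 0.0806% to 0.103%, 0.380% to 0.465% and 0.0459% to 0.115% of the counts.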

Additional observations from a re-analysis of the deposited data

How the results depend on the processing

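Of the 9 genes, 0 were called under all 20 alternatives except DESeq2, which called 1 (*Tead4*). The number of the 9 at an unadjusted p under 0.05 was 2, and it was 0 with the skeletal muscle covariate, 0 with the keratinocyte covariate, 1 with the replicate number as a block, 1 with the deposited values in limma, 3 with the *Xist* covariate (adding *Tead1*), and 1 to 4 with 1 library left out (1 without WT replicate 1, WT replicate 3, DTRScxLin replicate 1 or DTRScxLin replicate 3, and 4 without DTRScxLin replicate 2, which were *Piezo1*, *Piezo2*, *Tead2* and *Tead4*). *Tead4* stayed negative (-1.11 to -0.41) and *Piezo1* positive (0.10 to 0.38) under all 20 alternatives. The fit with the replicate block gave -0.90 for *Tead4* and 0.28 for *Piezo1*. Same-numbered libraries had correlations of deviations of -0.19, -0.15 and -0.68. These gave no sign of pairing by number, but so few libraries, which also differ in muscle content, cannot decide it. Small fold changes turned sign. *Trpv4* was 0.0072 with library quality weights, 0.060 with the muscle covariate and 0.091 without DTRScxLin replicate 1, with a range of -0.19 to 0.091 over left-out libraries. *Yap1* was 0.0030 with upper quartile scaling, 0.020 with the *Xist* covariate and -0.10 to 0.049 over left-out libraries (0.03 without WT replicate 2, 0.04 without DTRScxLin replicate 2, 0.049 without DTRScxLin replicate 3). *Tead2* was -0.20 with the muscle covariate, and *Tead3* -0.49 with the muscle covariate, 0.10 with the keratinocyte covariate and 0.10 without DTRScxLin replicate 2 (-0.24 to 0.10 over left-out libraries). With the muscle covariate the list medians were -0.0570 for other channels, -0.10 for Hippo genes, -0.22 for cofactors and -0.0135 for targets. The target median was 0.039 to 0.22 over left-out libraries, 0.22 without WT replicate 3 and 0.039 without DTRScxLin replicate 1. DESeq2 called 1 other channel (*Tmem63b*) and 2 targets, and edgeR without a low-count filter called 1 target (*Nt5e*). With 1 library left out, edgeR called 0 to 1 genes in the Hippo, cofactor and target lists, each without DTRScxLin replicate 2. The *Tead4* share difference was -4.24 with the longest transcripts and -1.91 to -1.21 over left-out libraries. The cause of these shifts was not tested. Over all genes, DESeq2 called 466 of 17564. edgeR called 83 of 30758 without a filter and 544 of 17998 without DTRScxLin replicate 2.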
